A study of Mus musculus with 15 samples.

Results

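The SR proteins and the heterogeneous nuclear ribonucleoproteins (hnRNPs) were followed as the protein-coding genes whose symbols begin with Srsf and a digit or with Hnrnp. This gave 31 of the 54495 genes in the deposited table, 11 Srsf genes and 20 Hnrnp genes. The cells were mouse embryonic fibroblasts, and in all of them 2 genes had been deleted, mTR (Terc, which encodes the telomerase RNA) and Wrn (a helicase whose loss in people causes Werner syndrome). TM fibroblasts were homozygous for p53 N236S, and DM fibroblasts had wild-type p53. Both genotypes were sampled in generations G1, G3 and G5, the rounds of breeding over which mice with no telomerase lose telomere sequence. There were 2 G1TM, 3 G3TM and 3 G5TM libraries, and 2 G1DM, 2 G3DM and 3 G5DM libraries of polyA RNA, 15 in all. The labels do not say whether libraries of a group came from separate embryos, so p-values measure only the spread between these libraries. Control fibroblasts that the design text names are not analysed here, and every group therefore shares the loss of mTR and Wrn.

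SR proteins bind pre-mRNA through RNA recognition motifs and recruit spliceosome components through a domain rich in arginine and serine, and many of them favour inclusion of the exon they bind. hnRNPs coat nascent RNA, often act against SR proteins at splice sites, and also serve in export, stability and translation of mRNA. Many genes of both families hold exons that bring in a premature stop codon, and the encoded proteins can steer their own transcripts into nonsense-mediated decay through them. The table gives 1 value per gene, so such isoforms were not distinguished. In RNA from whole cultures, fewer cells of a type and less RNA per cell cannot be told apart.

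Levels are given as FPKM, the fragments of a gene divided by its length in kilobases and by a library size that the authors chose. Read numbers recovered from the FPKM steps came to 17448588 to 29571111 per library. Differences are given on the log2(FPKM + 1) scale, which understates changes of low genes, and a gene was called at an adjusted p under 0.05 (limma, Benjamini-Hochberg over the 13562 genes with at least 1 FPKM in at least 2 libraries). Cdkn1a, a p53 target, was 4.22 to 29.6 FPKM in TM and 86.2 to 216 FPKM in DM, so the labels and this target did not conflict in any library. Summed FPKM of 8 fibroblast markers was 3076 to 4580 in the 6 G3TM and G5TM libraries and 3755 to 6203 in the other 9. The 6 G3TM and G5TM libraries stood apart from the other 9, for example with 300.4 to 610 FPKM of the ribosomal protein gene Rpl12 against 3.84 to 6.77 FPKM. The 4 neural markers summed to 79.4 to 247 FPKM in the 6 and 13.9 to 42.0 FPKM in the 9, with 3 of the 4 at 1 FPKM or more in some library. The 4 epithelial markers (2 of 4 at 1 FPKM or more) summed to 19.1 to 71.7 and 3.69 to 46.8 FPKM, and the 6 macrophage and leukocyte markers (4 of 6) to 2.76 to 94.8 and 2.75 to 13.2 FPKM. The 7 skeletal muscle markers (6 of 7) summed to 34.6 to 319 FPKM in the 6 and 37.5 to 340 FPKM in the 9. Their sums were 206 to 340 FPKM in G3DM, against 62.8 to 173 FPKM in G1DM and 86.3 to 144 FPKM in G5DM. In G3TM they were 42.1 to 319 FPKM. The part of any of these marker sets in the results was not tested. Because the 6 libraries hold TM cells only, genotype in G3 and G5 cannot be told apart from this split, and neither can generation within TM when G1 is compared. The comparison of genotypes in G1 and those of generations within DM lie inside the 9. Within the 9, both G3DM libraries and G5DM replicate 1 stood apart from the other DM libraries over all tested genes, as given below.

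All 31 members were measured above the filter on low values. Of these, Srsf12 passed it only through G5DM replicates 2 and 3, so a difference in G5 was built into its selection. The 3 members with the highest mean level were Hnrnpa0, Hnrnpab and Hnrnpa1. The 11 SR protein genes summed to 345 ± 0.072 FPKM in G1TM, 503 ± 25.3 in G3TM and 490.1 ± 102 in G5TM, and to 269 ± 50.9, 197 ± 7.22 and 246 ± 42.4 FPKM in G1DM, G3DM and G5DM (SD, n = 2, 3 and 3 for TM and 2, 2 and 3 for DM). The 20 hnRNP genes summed to 1247 ± 25.02, 1484 ± 125 and 1569 ± 246 FPKM in G1TM, G3TM and G5TM, and to 897 ± 160, 688 ± 13.3 and 769.9 ± 105 FPKM in G1DM, G3DM and G5DM. Within each generation, every TM library had a higher sum than every DM library for each family. At an equal sum over tested genes the TM means stayed higher in each generation, but the G5 libraries overlapped, with SR protein sums of 361 to 421 FPKM in G5TM and 217 to 408 FPKM in G5DM, and the G1TM mean of 426 FPKM was no longer below those of G3TM (412) and G5TM (394).

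In G1, 28 of the 31 members had a higher mean in TM than in DM, and none passed the test. The median difference was 0.40 on the log2 scale, against 0.02 over all tested genes, of which 52.2% had a positive difference and 1.17% were called. The smallest adjusted p among members was 0.213 (limma), for Srsf1. In the same fit 5 members reached an unadjusted p under 0.05 (12.5% of all genes did), and with voom on the recovered reads 0 were called and 6 reached it. Srsf1, the founding SR protein, had 54.0 and 53.03 FPKM in G1TM, against 27.5 and 40.1 FPKM in G1DM (log2 0.67 ± 0.24, SE). Hnrnpab, which binds single-stranded nucleic acid and is related to hnRNP D, had 178 and 216 FPKM in G1TM, against 96.7 and 145 FPKM in G1DM (log2 0.72 ± 0.27, adjusted p = 0.257, limma). Both TM libraries lay above both DM libraries for these genes and for 24 of the 31 members in all, and below them for 1 member, Srsf12. With 2 libraries a side, such a separation was common, since 26.4% of all genes lay higher and 23.0% lower without overlap.

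Many members were higher in TM than in DM in G3 and in G5. In comparisons of TM with DM, rose and fell mean higher and lower in TM. In G3, 19 members rose, none fell and 12 did not pass, where 32.0% of all genes were called, 18.0% higher and 13.9% lower. In G5, 14 rose, 3 fell and 14 did not pass, where 58.7% of all genes were called, 30.3% higher and 28.4% lower. The 3 include Srsf12, whose difference in G5 was built into its selection. At an equal sum over tested genes 7 members rose and 5 fell in G5 (61.5% of all genes called), and with quantile normalization 8 rose and 5 fell (57.8%). The share of members called in G5, in either direction, was below that of all genes in the main fit and with both scalings. In G3 these scalings gave 8 and 9 members that rose and none that fell (33.8% and 31.8% of all genes called). The members' median difference was 0.83 in G3 and 0.52 in G5, against 0.01 and 0.02 over all tested genes. The G5 median became −0.06, with 15 members positive, when the libraries were scaled to an equal sum over tested genes, a scaling that moved the median of all genes to −0.43. The same scaling moved the median of all genes to −0.23 in G3, where the members' median was 0.46. As the mean of the 3 generations, 22 members rose and 1, Srsf12, fell, where 54.1% of all genes were called, 29.0% higher and 25.1% lower. That mean includes the G5 difference of Srsf12, which was built into its selection. All 3 G3TM libraries expressed the Y-linked gene Ddx3y, at 0.836 to 1.42 FPKM, with Xist listed at 0, while both G3DM libraries expressed Xist, at 3.05 and 3.36 FPKM, with Ddx3y listed at 0. Both G1TM libraries expressed Xist, at 26.9 and 18.1 FPKM, with Ddx3y listed at 0. TM against DM in G3, and G3 against G1 in TM, therefore cannot be told apart from embryo sex as these genes mark it. In G1DM and in both G5 groups each of these genes was expressed in some libraries.

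**Figure D1:**
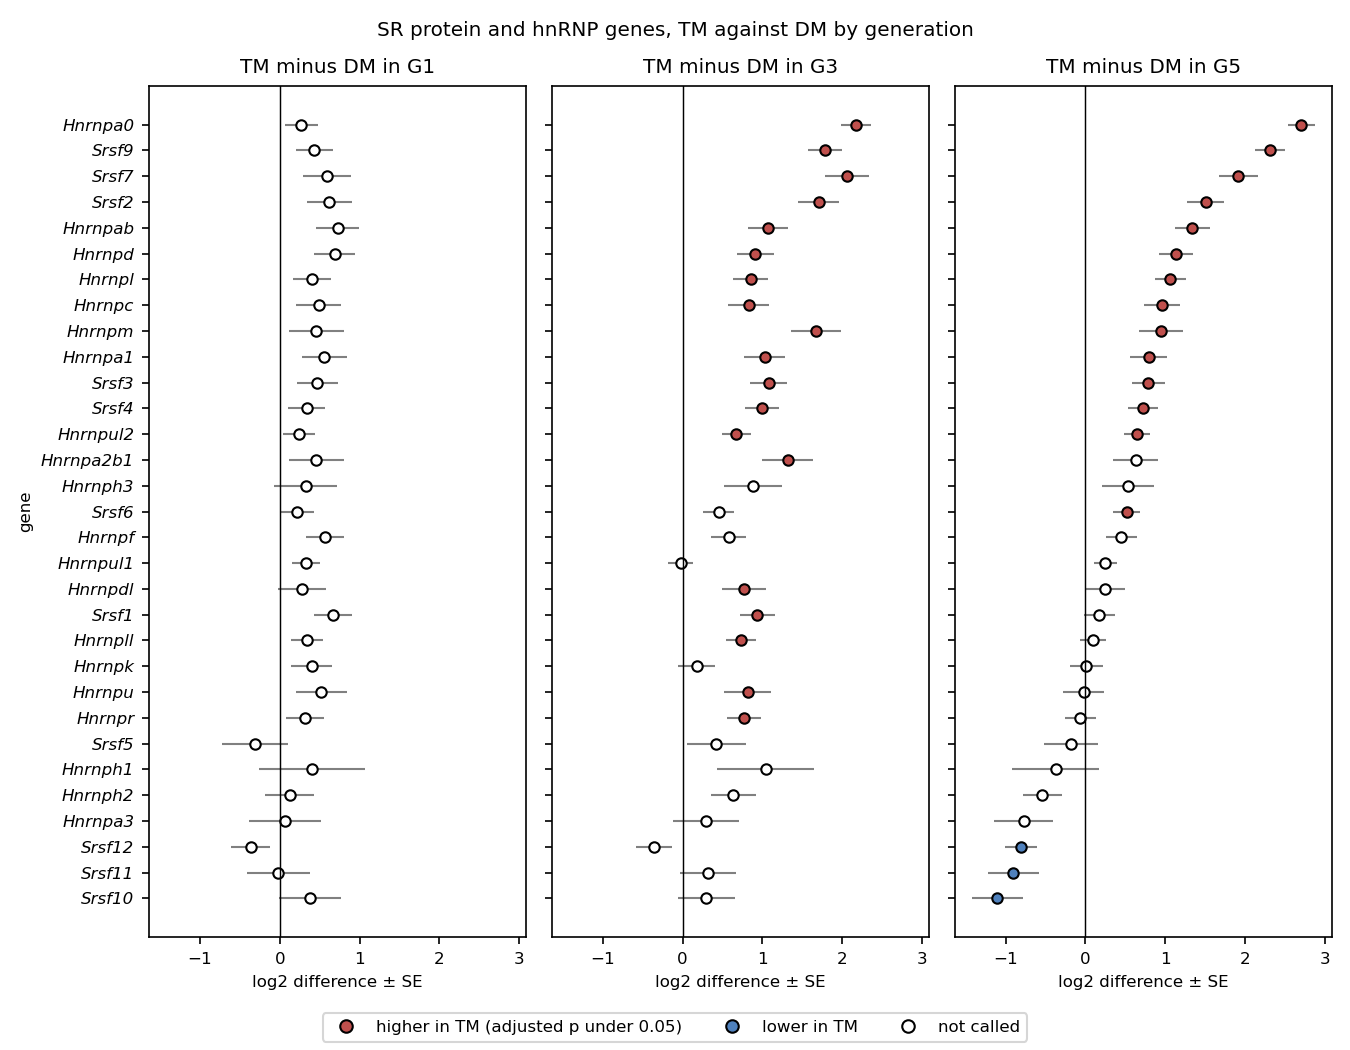
Log2 difference ± SE of TM minus DM for the 31 genes (rows) in G1, G3 and G5 (panels), with called genes filled. No gene is filled in G1, 19 are filled on the higher side in G3, and 14 on the higher and 3 on the lower side in G5, where Srsf6 turns negative with quantile or equal-sum scaling.

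Hnrnpa0, an hnRNP of the A/B group known to bind AU-rich elements of mRNA, showed the largest rise in both generations. It had 364, 351 and 372.5 FPKM in G3TM, against 78.1 and 81.4 FPKM in G3DM. It had 518, 400.3 and 409 FPKM in G5TM, against 73.1, 59.3 and 67.3 FPKM in G5DM. In G1 it had 91.7 and 96.4 FPKM in TM, against 75.3 and 80.6 FPKM in DM. The 6 G3TM and G5TM libraries thus held 351 to 518 FPKM, and every other library 59.3 to 96.4 FPKM. The log2 difference between TM and DM was 2.17 ± 0.19 in G3 (SE, adjusted p = 9.45e-06, limma) and 2.71 ± 0.17 in G5 (adjusted p = 3.65e-07). Hnrnpa0 (ENSMUSG00000007836, chromosome 13, 58125879 to 58128556, minus strand) is annotated as 1 exon of 2678 bases with no intron and shares no exonic base with another gene.

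Srsf9, a short SR protein with a pair of RNA recognition motifs, came next in G5. It had 93.4, 98.8 and 114 FPKM in G3TM, against 31.6 and 26.1 FPKM in G3DM. It had 124, 90.1 and 110.3 FPKM in G5TM, against 26.0, 17.6 and 19.7 FPKM in G5DM. In G1 it had 26.3 and 31.7 FPKM in TM, against 20.6 and 21.7 FPKM in DM. No G3TM or G5TM library overlapped any other library, while the G1TM libraries lay at the upper end of the DM range of 17.6 to 31.6 FPKM. The log2 difference was 1.79 ± 0.21 in G3 (SE, adjusted p = 0.000107, limma) and 2.31 ± 0.19 in G5 (adjusted p = 3.65e-06).

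Srsf7 (9G8), an SR protein with a zinc knuckle that also serves in mRNA export, had 76.3, 108 and 116 FPKM in G3TM, against 23.2 and 22.4 FPKM in G3DM. It had 103, 62.1 and 108 FPKM in G5TM, against 24.99, 18.0 and 25.7 FPKM in G5DM. In G1 it had 39.6 and 42.3 FPKM in TM, against 22.1 and 32.4 FPKM in DM. Every TM library lay above every DM library, with G1TM between the DM libraries and the 6. The log2 difference was 2.06 ± 0.28 in G3 (SE, adjusted p = 0.000239, limma) and 1.92 ± 0.25 in G5 (adjusted p = 7.51e-05). Srsf2 (SC35) is added here after its values were seen. It had 109, 129 and 138 FPKM in G3TM, against 38.4 and 36.7 FPKM in G3DM. It had 152, 83.2 and 129 FPKM in G5TM, against 44.9, 34.1 and 44.1 FPKM in G5DM. All TM libraries, those of G1 included at 66.5 and 73.8 FPKM, lay above all DM libraries (log2 1.71 ± 0.26 in G3 and 1.51 ± 0.23 in G5, SE, adjusted p = 0.000502 and 0.000212, limma). A share of 25.3% of its exonic bases lies over Mettl23 and Mfsd11 on the opposite strand, and the sources used here do not say whether reads were counted by strand.

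**Figure D2:**
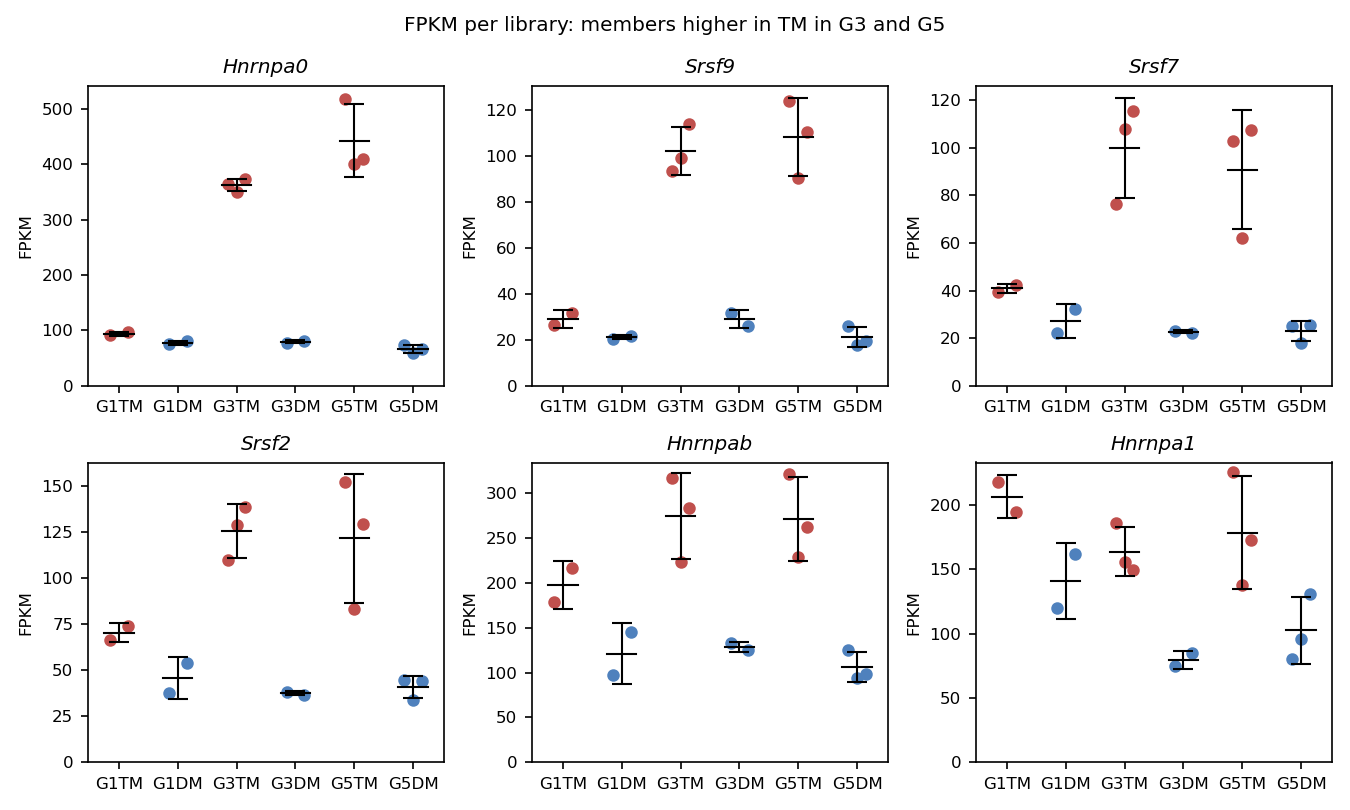
FPKM of 6 genes in each library (points) by group, TM (red) left of DM (blue) within each generation, with the group mean and SD (n = 2 for G1TM, G1DM and G3DM, n = 3 for the others). Hnrnpa0, Srsf9, Srsf7 and Srsf2 are highest in the G3TM and G5TM groups, while the G1TM group of Hnrnpa1 has a mean of 207 FPKM and is not below them.

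The 3 genes with the largest rises have promoters of different base composition. The 250 bases before a RefSeq start of each are printed to let these be compared with that of Srsf10, which had the largest fall in G5. Capitals mark CCAAT boxes, CHR elements (TTTGAA) and the related TTTAAA, searched on both strands. The CHR element is the site that the MuvB core of the DREAM and MMB complexes binds, and the series title names those complexes. The CCAAT box is bound by NF-Y. Sequences are from RefSeq on GRCm38.p6 and run 5′ to 3′ on the strand of the gene. The window of Srsf10 lies inside the gene as GENCODE vM21 draws it, since that annotation has a start further upstream, and the window of Srsf7 overlaps the first bases of its GENCODE gene.
Hnrnpa0, chr13:58128557-58128806, minus strand: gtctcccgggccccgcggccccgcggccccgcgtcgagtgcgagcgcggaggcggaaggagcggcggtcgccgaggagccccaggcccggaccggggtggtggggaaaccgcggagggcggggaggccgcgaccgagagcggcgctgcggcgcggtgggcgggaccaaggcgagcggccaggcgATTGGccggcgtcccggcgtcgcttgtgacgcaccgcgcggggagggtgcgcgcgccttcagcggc
Srsf9, chr5:115326927-115327176, plus strand: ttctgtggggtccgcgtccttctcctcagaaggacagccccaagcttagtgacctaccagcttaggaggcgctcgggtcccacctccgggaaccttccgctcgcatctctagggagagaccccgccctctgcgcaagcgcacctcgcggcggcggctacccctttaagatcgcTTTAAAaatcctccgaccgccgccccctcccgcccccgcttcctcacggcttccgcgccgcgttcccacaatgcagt
Srsf7, chr17:80207306-80207555, minus strand: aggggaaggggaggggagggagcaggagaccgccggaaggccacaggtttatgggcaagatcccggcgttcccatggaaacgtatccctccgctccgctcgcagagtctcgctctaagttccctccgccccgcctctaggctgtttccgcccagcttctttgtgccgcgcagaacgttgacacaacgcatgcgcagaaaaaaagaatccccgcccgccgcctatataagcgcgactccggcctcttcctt
Srsf10, chr4:135855821-135856070, plus strand: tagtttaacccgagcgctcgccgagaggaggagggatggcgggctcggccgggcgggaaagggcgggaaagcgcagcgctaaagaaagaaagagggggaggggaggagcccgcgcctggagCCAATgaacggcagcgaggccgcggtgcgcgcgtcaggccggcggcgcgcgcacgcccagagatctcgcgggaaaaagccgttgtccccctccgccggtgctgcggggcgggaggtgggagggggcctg
The window of Hnrnpa0 has a GC content of 81.2% with 46 CpG pairs, that of Srsf9 65.2% with 25, that of Srsf7 61.6% with 23 and that of Srsf10 72.0% with 33. TTTGAA was present in the windows of 5 of the 29 members with a promoter sequence in the table, 17.2%, against 16.0% of all 32851 promoters. TTTAAA was present in 6 of 29, 20.7%, against 12.1% of all promoters. CCAAT was present in 16 of 29, 55.2%, against 33.85% of all promoters. By gene, 18.3% of 27025 genes held the CHR element in a promoter, 13.7% held the related motif and 37.5% a CCAAT box. Hnrnpa0 and Srsf10 each hold a CCAAT box, and none of the 3 motifs occurs in the window of Srsf7. A match is a description of the sequence and does not show binding.

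The other SR protein genes had smaller differences. Srsf3, the smallest SR protein, and Srsf4, a long member with an extended arginine-serine domain, rose in G3 and in G5. The library values of Srsf3 are given after they were seen. Srsf3 had 38.4, 26.3 and 23.6 FPKM in G3TM, against 13.9 and 12.3 FPKM in G3DM, and all TM libraries lay above all DM libraries. The log2 differences in G3 and G5 were 1.08 ± 0.23 and 0.79 ± 0.21 for Srsf3 (SE, adjusted p = 0.00437 and 0.00645, limma) and 1.00 ± 0.21 and 0.72 ± 0.19 for Srsf4 (adjusted p = 0.00388 and 0.00576). Srsf4 shares 43.0% of its exonic bases with Gm12992 on the opposite strand. Srsf6 rose in G5 (log2 0.52 ± 0.17, SE, adjusted p = 0.0196, limma), with a difference of 0.45 ± 0.19 in G3 (adjusted p = 0.0873), and its G5 difference was −0.07 with quantile normalization and −0.06 with an equal sum. Srsf1 rose in G3, at 45.7, 37.3 and 33.99 FPKM in TM and 18.8 and 20.7 FPKM in DM (log2 0.94 ± 0.22, SE, adjusted p = 0.0061, limma). In G5 its TM libraries, at 34.6, 28.0 and 33.5 FPKM, overlapped the DM libraries, at 23.6, 27.5 and 34.3 FPKM (log2 0.18 ± 0.19, adjusted p = 0.447). Srsf5 did not pass in any generation, with log2 differences of −0.31 ± 0.41 in G1, 0.42 ± 0.37 in G3 and −0.18 ± 0.33 in G5.

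Srsf10 and Srsf11 fell in G5. Srsf10 (SRp38), which acts as a splicing repressor when it is dephosphorylated, had 5.46, 4.57 and 5.41 FPKM in G5TM, against 6.04, 15.2 and 19.1 FPKM in G5DM. The 3 TM libraries lay together below the 3 DM libraries, and G5DM replicate 1 lay close to TM. The log2 difference was −1.10 ± 0.32 (SE, adjusted p = 0.0105, limma). In G3 the order was the other way, with 7.09, 4.46 and 4.15 FPKM in G3TM, against 3.88 and 4.05 FPKM in G3DM (log2 0.30 ± 0.36, adjusted p = 0.564). Srsf11 (p54) had 9.32, 9.33 and 9.90 FPKM in G5TM, against 8.92, 24.0 and 29.8 FPKM in G5DM, so G5DM replicate 1 lay below all 3 TM libraries (log2 −0.91 ± 0.32, SE, adjusted p = 0.0265, limma). Both calls were lost when differences were corrected for transcript GC content and length, with log2 values of −0.31 and −0.26 and adjusted p of 0.198 and 0.377. Srsf12, an SR-related splicing regulator, had 0.156, 0.333 and 0.132 FPKM in G5TM, against 0.493, 1.25 and 1.78 FPKM in G5DM. Since G5DM replicates 2 and 3 brought it above the filter, its difference in G5 is given with no test. It was also low in the other TM libraries, at 0.118 and 0.139 FPKM in G1TM against 0.542 and 0.369 FPKM in G1DM, and at 0.0966, 0.0216 and 0.0418 FPKM in G3TM against 0.398 and 0.313 FPKM in G3DM. Its groups did not overlap in any generation, at levels under 1 FPKM outside G5DM.

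Among the A/B hnRNPs, which bind exonic silencers and telomeric repeat RNA, the rises beside Hnrnpa0 were smaller. Hnrnpa1, the best studied exon-skipping factor of the group, had 186, 156 and 149.8 FPKM in G3TM, against 74.6 and 84.7 FPKM in G3DM. It had 225, 138 and 173 FPKM in G5TM, against 80.7, 96.2 and 131 FPKM in G5DM, and 218 and 195 FPKM in G1TM, against 120.3 and 162 FPKM in G1DM. The groups did not overlap within any generation, and the G1TM libraries lay above all G3TM libraries and overlapped those of G5TM. The log2 differences were 1.03 ± 0.26 in G3 and 0.79 ± 0.23 in G5 (SE, adjusted p = 0.00995 and 0.0112, limma). Hnrnpa2b1, a close relative of Hnrnpa1, rose in G3 (log2 1.32 ± 0.32, SE, adjusted p = 0.00736, limma) and did not pass in G5 (0.63 ± 0.28, adjusted p = 0.0699). Hnrnpa3 passed in neither (0.29 ± 0.41 and −0.77 ± 0.37). The makeup of the group therefore differed, as Hnrnpa0 held 24.3 ± 2.38, 60.0 ± 3.33 and 63.3 ± 2.16% of its summed FPKM in G1TM, G3TM and G5TM, and 27.7 ± 3.62, 41.9 ± 1.02 and 30.3 ± 8.20% in G1DM, G3DM and G5DM (SD). In the SR family, Srsf2, Srsf7 and Srsf9 together held 40.6 ± 3.15, 65.0 ± 6.42 and 65.1 ± 3.28% of the summed FPKM in G1TM, G3TM and G5TM, and 34.9 ± 0.65, 45.2 ± 1.18 and 35.2 ± 8.25% in G1DM, G3DM and G5DM. Hnrnpa0 and these SR genes were picked for their rises in the same values. Larger shares in G3TM and G5TM were therefore built into the choice.

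In the D group, which binds AU-rich elements and tunes mRNA decay, Hnrnpd (AUF1) and Hnrnpab rose in both generations. Hnrnpab had 317, 223 and 284 FPKM in G3TM, against 133 and 125 FPKM in G3DM, and 321, 229 and 262 FPKM in G5TM, against 125, 94.1 and 98.6 FPKM in G5DM. All 8 TM libraries were above all 7 DM libraries for Hnrnpab and for Hnrnpd. The log2 differences in G3 and G5 were 1.07 ± 0.25 and 1.34 ± 0.22 for Hnrnpab (SE, adjusted p = 0.00638 and 0.00036, limma) and 0.91 ± 0.24 and 1.13 ± 0.21 for Hnrnpd (adjusted p = 0.0108 and 0.000736). Hnrnpab shares 29.1% of its exonic bases with Phykpl on the opposite strand. Hnrnpdl rose in G3 (0.77 ± 0.28, adjusted p = 0.0483) and not in G5 (0.25 ± 0.25, adjusted p = 0.400).

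Of the remaining hnRNPs, Hnrnpc, which binds uridine tracts, Hnrnpl, a CA-repeat binder, Hnrnpm, and Hnrnpul2 of the U group rose in G3 and in G5. The library values of Hnrnpm, which is known to bind GU-rich RNA, are given after they were seen. It had 52.4, 32.2 and 29.6 FPKM in G3TM, against 9.51 and 12.4 FPKM in G3DM (log2 1.67 ± 0.31, SE, adjusted p = 0.00187, limma). In G5 it had 53.3, 44.3 and 38.2 FPKM in TM, against 15.2, 24.5 and 31.7 FPKM in DM (0.95 ± 0.28, adjusted p = 0.0111), and the groups did not overlap in either generation. In G1 it had 48.65 and 39.3 FPKM in TM, against 26.6 and 37.3 FPKM in DM. The G1TM libraries thus overlapped those of G3TM and of G5TM, and both G3DM libraries lay below both G1DM libraries. Hnrnpm shares 14.7% of its exonic bases with March2 on the same strand. Hnrnpl differed by 0.85 ± 0.22 in G3 and 1.06 ± 0.20 in G5, Hnrnpc by 0.83 ± 0.25 and 0.96 ± 0.23, and Hnrnpul2 by 0.67 ± 0.18 and 0.64 ± 0.16 (adjusted p of all 6 values 0.000719 to 0.0252). Hnrnpll, Hnrnpr and the scaffold attachment factor gene Hnrnpu rose in G3 (0.73 ± 0.19, 0.76 ± 0.21 and 0.81 ± 0.29) and had differences of 0.10, −0.06 and −0.02 in G5. The F/H group, which binds guanine runs, had no call in any single generation, while as the mean of the 3 generations Hnrnpf (0.53 ± 0.12, SE, adjusted p = 0.00321) and Hnrnph3 (0.58 ± 0.21, adjusted p = 0.0317, limma) rose. At an equal sum neither passed (adjusted p = 0.269 and 0.338). The call of Hnrnpf was also lost with quantile normalization, and that of Hnrnph3 in 10 of 22 alternatives, 7 of which left out 1 library. Hnrnpf shares 26.5% of its exonic bases with 4933440N22Rik and Gm43863 on the opposite strand. Hnrnpf differed by 0.58 ± 0.22 in G3 and 0.45 ± 0.19 in G5 (adjusted p = 0.0563 and 0.0594), and Hnrnph1, Hnrnph2 and Hnrnph3 differed by 0.64 to 1.04 in G3 and −0.54 to 0.53 in G5. Hnrnpk, a KH-domain protein that binds cytidine-rich sequence, and Hnrnpul1 did not pass in any generation, with differences of 0.18 and −0.02 in G3 and 0.01 and 0.25 in G5.

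Calls on the higher side that held under every alternative were those of Hnrnpa0, Srsf2, Srsf7, Srsf9 and Hnrnpm in G3, and of Hnrnpa0, Srsf2, Srsf7, Srsf9, Hnrnpab and Hnrnpl in G5. The other 14 calls in G3 were each lost without G3DM replicate 1 or without G3DM replicate 2, so that 6 members were called without replicate 2 (11.4% of all genes) and 9 without replicate 1 (18.0%). Hnrnpc was also lost without G3TM replicate 2 or 3, and Hnrnpdl and Hnrnpu were each lost in 11 of the 15 fits that left out 1 library. In G5, Srsf10 was lost without G5DM replicate 3, Hnrnpa1 without G5TM replicate 1, and Srsf6 without G5DM replicate 2 or G5TM replicate 1. Srsf11 was lost without G5DM replicate 2 or 3 or any 1 G5TM library. Over all 15 libraries, 9 members were higher in every TM than in every DM library, where 3.86% of all genes were. They were Hnrnpa0, Hnrnpab, Hnrnpc, Hnrnpd, Hnrnpul2, Srsf2, Srsf3, Srsf4 and Srsf7. The 6 G3TM and G5TM libraries lay above the other 9 for Hnrnpa0, Hnrnpab, Hnrnpl, Srsf2, Srsf7 and Srsf9, a count of 6 members where 17.1% of all genes did so.

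Within DM, several members separated libraries rather than generations, and this split was not particular to them. Over all tested genes, principal component 2 (11.3% of the variance) was 44.5 and 39.9 in G3DM and 29.4 in G5DM replicate 1. It was −11.4 to 8.45 in the other DM libraries. Genes above 0 FPKM numbered 21108 and 21784 in G3DM and 21138 in G5DM replicate 1, against 23619 to 25789 in the other DM libraries. Hnrnph1, which binds guanine runs and is an abundant silencer of exons, had 24.7 and 45.1 FPKM in G1DM, 7.18 and 9.24 FPKM in G3DM, and 7.95, 40.5 and 59.3 FPKM in G5DM. G5DM replicate 1 lay with the G3DM libraries, and G5DM replicates 2 and 3 lay with or above G1DM. Hnrnpa3 had 3.67 and 6.30 FPKM in G1DM, 1.10 and 1.2 in G3DM, and 1.53, 5.56 and 7.78 in G5DM, so both G3DM libraries and G5DM replicate 1 were again the lowest of the DM libraries. Hnrnph2, an X-linked relative of Hnrnph1, had 13.9 and 19.2 FPKM in G1DM, 5.31 and 7.42 in G3DM, and 10.5, 21.3 and 20.4 in G5DM. Srsf10 and Srsf11 showed the same low values in both G3DM libraries and in G5DM replicate 1. These genes are described after their values were seen. Both G3DM libraries and G5DM replicate 1 expressed Xist, at 3.05 to 4.88 FPKM, as did G1DM replicate 2 at 28.6 FPKM. G1DM replicate 1 and G5DM replicates 2 and 3 instead expressed the Y-linked gene Ddx3y, at 4.44 to 16.6 FPKM. The part of sex in these differences was not tested.

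**Figure D3:**
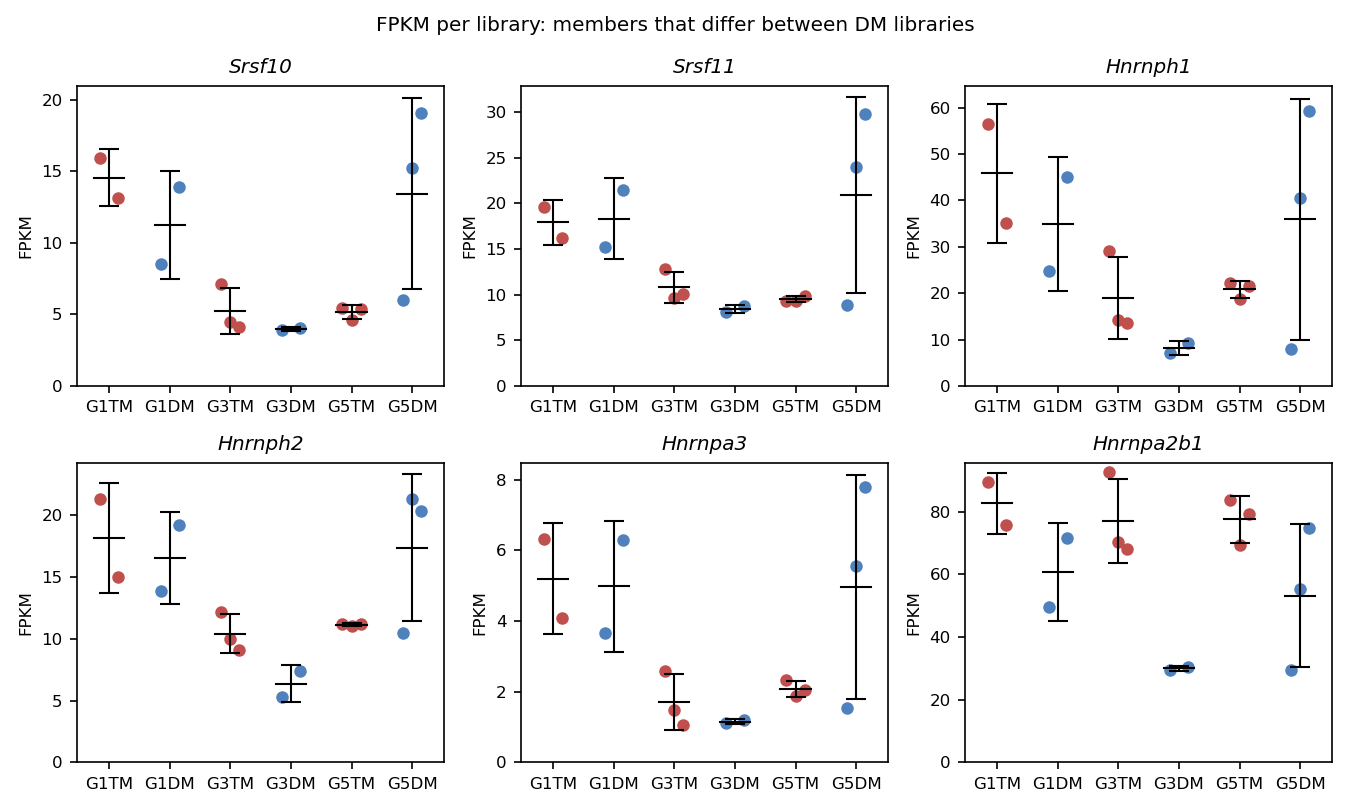
FPKM of 6 genes in each library (points) by group, TM (red) left of DM (blue), with the group mean and SD. For Srsf10, Srsf11, Hnrnph1, Hnrnph2, Hnrnpa3 and Hnrnpa2b1 the lowest G5DM point is replicate 1, which lies near the G3DM points and far from the other G5DM points.

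No member was called in G3 against G1 in DM, where 0.214% of all genes were called, 0.184% higher and 0.0295% lower. In that comparison 15 members reached an unadjusted p under 0.05 (20.5% of all genes did), and the members' median was −0.56, against 0.09 over all genes. The smallest adjusted p was 0.0849 (limma), for Hnrnpm. Without G5DM replicate 1, a library that bears on this comparison through the common estimate of variance, 13 members were called lower in G3DM, and 11.3% of all genes were called. In G5 against G1 in DM no member was called, where 0.059% of all genes were called, 0.00737% higher and 0.0516% lower, and 1 member reached an unadjusted p under 0.05 (limma; 1 with voom). Without G5DM replicate 1 the count was 1 (0.973% of all genes), which was Srsf12 and rests on the 2 libraries through which it passed the filter. In G5 against G3 in DM, 3 members rose and none fell, where 4.98% of all genes were called, 3.35% higher and 1.64% lower. They were Srsf10 (1.41 ± 0.36, SE, adjusted p = 0.0430), Hnrnph2 (1.27 ± 0.28, adjusted p = 0.0312) and Hnrnpr (0.80 ± 0.21, adjusted p = 0.0496, limma). Hnrnpr, added after its values were seen, had a low level, at 2.37, 3.64 and 4.85 FPKM in G5DM and 1.48 and 1.71 FPKM in G3DM. Without G5DM replicate 1 the counts were 14 higher and 1 lower, where 22.9% of all genes were called, and without any 1 of the other DM libraries of G3 and G5 no member was called. The count was 1 without either G1TM library, without G3TM replicate 2 or 3, and without any 1 G5TM library.

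Within TM, where these comparisons span the split of 6 and 9 libraries, 5 members rose and 4 fell in G3 against G1, and 46.8% of all genes were called, 25.2% higher and 21.6% lower. In G5 against G1, 5 rose and 3 fell, and 49.5% of all genes were called, 26.0% higher and 23.5% lower. Most members were not higher in G3TM or G5TM than in G1TM. Of the 31, 11 had a positive difference in G3 and 14 in G5. The members' medians were −0.24 and −0.05, against 0.03 over all genes in each. Hnrnpa0, Srsf9, Srsf7, Srsf2 and Hnrnpl were the members that rose in both. The G5 against G1 differences were 2.21 ± 0.19 for Hnrnpa0 (SE, adjusted p = 9.36e-06, limma), 1.86 ± 0.21 for Srsf9 (adjusted p = 7.2e-05) and 1.09 ± 0.28 for Srsf7 (adjusted p = 0.00638). Srsf10 fell in both, with 5.46, 4.57 and 5.41 FPKM in G5TM, against 16.0 and 13.2 FPKM in G1TM (−1.34 ± 0.36, adjusted p = 0.00882). Srsf1 fell in G5, with 34.6, 28.0 and 33.5 FPKM in G5TM, against 54.0 and 53.03 FPKM in G1TM (−0.73 ± 0.22, adjusted p = 0.0147). Hnrnpk fell in both, with 88.5, 58.9 and 59.3 FPKM in G3TM and 86.8, 57.7 and 62.3 FPKM in G5TM, against 105 and 103 FPKM in G1TM (−0.61 ± 0.23 in each, adjusted p = 0.0451 and 0.0443). These TM groups did not overlap for Srsf10, Srsf1 or Hnrnpk. Hnrnpa3 and Hnrnph2 fell in G3 (−1.21 ± 0.41 and −0.74 ± 0.28). After the same correction for GC content and length, every one of these falls in TM was lost. The corrected differences were −0.55 in G3 and −0.52 in G5 for Srsf10 (adjusted p = 0.0746 and 0.0834, limma), −0.47 and −0.14 in G3 for Hnrnpa3 and Hnrnph2, 0.068 in G3 and 0.10 in G5 for Hnrnpk, and 0.0041 in G5 for Srsf1. The rises of Srsf2 and Hnrnpl were lost in G3 and in G5 with that correction, with quantile normalization and at an equal sum, and with quantile normalization their G3 differences were 0.12 and 0.04, against 0.83 and 0.74 without it. The G5 rise of Srsf7 was lost with quantile normalization and at an equal sum (adjusted p = 0.0961 and 0.0591). Hnrnpa0 and Srsf9 in both comparisons and Srsf7 in G3 kept their calls without any 1 library, and each of the others was lost without G1TM replicate 1. Without G1TM replicate 1, the G3 count was 3 and the G5 count 2, all higher (13.1% and 21.4% of all genes called). Without G1TM replicate 2 it was 4 in each (30.5% and 34.5%), and without G5DM replicate 1 it was 12 and 13 (54.5% and 56.7%). Without G3TM replicate 2 or 3 the G3 count was 4 or 5 (31.2% and 31.4%), and without G5TM replicate 3 the G5 count was 5 (40.5%). In G5 against G3 in TM no member was called (limma), where 0.0295% of all genes were, 0.0221% higher and 0.00737% lower, and 0 reached an unadjusted p under 0.05 (1 with voom).

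Whether the TM minus DM difference itself changed between generations was tested as an interaction. The interactions of G3 and of G5 against G1 span the split of 6 and 9 libraries and cannot be told apart from it. That of G3 also cannot be told apart from embryo sex as Xist and Ddx3y mark it. Relative to G1, the difference was larger in G3 for Hnrnpa0, by 1.90 ± 0.28 log2 units (SE, adjusted p = 0.00318, limma), and for Srsf9, by 1.35 ± 0.31 (adjusted p = 0.0398), where 2.42% of all genes were called, 1.53% higher and 0.885% lower. It was larger in G5 for Hnrnpa0 by 2.44 ± 0.27 (adjusted p = 0.000215), for Srsf9 by 1.88 ± 0.30 (adjusted p = 0.00243) and for Srsf7 by 1.32 ± 0.39 (adjusted p = 0.0339), where 19.8% of all genes were called, 11.5% higher and 8.33% lower. The DM libraries of all generations lay within 59.3 to 81.4 FPKM for Hnrnpa0, 17.6 to 31.6 FPKM for Srsf9 and 18.0 to 32.4 FPKM for Srsf7. No member was called lower. Srsf10 had the most negative interaction in G5, at −1.48 ± 0.51 (adjusted p = 0.0546). The G5 interaction count was 11, of which 4 higher and 7 lower, without G5DM replicate 1, where 42.4% of all genes were called. The G5 interaction of Srsf7 was lost without any 1 of the G1 libraries, without G5DM replicate 2 and without G5TM replicate 1 or 3. The G3 interaction of Srsf9 was lost without any 1 of the G1 and G3DM libraries, without G3TM replicate 2 or 3 and without G5TM replicate 3. An interaction of genotype with G5 against G3, added after the data were seen, called no member (limma), where 0.236% of all genes were called, 0.214% higher and 0.0221% lower, and 6 members reached an unadjusted p under 0.05. Without G5DM replicate 1 it called 10, all lower, and 13.1% of all genes.

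Other splicing genes were counted on lists, to be read against 32.0% of all genes called in G3 and 58.7% in G5. The lists were counted in the main fit only and not under the alternatives that lowered the counts of members. For them too, genotype in G3 and G5 cannot be told apart from the split of 6 and 9 libraries. Of 57 spliceosome core genes, 36 rose, none fell and 21 did not pass in G3, and 41 rose, 4 fell and 12 did not pass in G5, so 63.2% and 78.9% were called. The list's medians were 0.80 and 0.96, against 0.01 and 0.02 over all genes. The largest rises were those of the small Sm and LSm ring proteins, with Snrpg (3.88 ± 0.38, SE) and Lsm5 (3.69 ± 0.58) in G3 and Snrpd2 (3.33 ± 0.39) and Lsm4 (3.26 ± 0.34) in G5. The branch-point factor Sf3b1 fell in G5 (−1.14 ± 0.27). Of 28 tested genes among 29 for SR-related proteins and SR kinases, 5 rose, 2 fell and 21 did not pass in G3, and 6 rose, 14 fell and 8 did not pass in G5, so 25% and 71.4% were called. U2af2, the large subunit of the polypyrimidine tract factor, rose (1.97 ± 0.30 in G3 and 2.18 ± 0.27 in G5), and U2af1 rose in G3 (1.38 ± 0.29) and Rnps1 in G5 (1.65 ± 0.38). Son, a nuclear speckle scaffold, fell (−1.18 ± 0.24 in G3 and −1.62 ± 0.22 in G5), as did Srrm2 in G3 (−0.81 ± 0.22) and the SR protein kinase Clk1 in G5 (−1.55 ± 0.46).

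Of 25 other RNA-binding regulators of splicing, 8 rose, none fell and 17 did not pass in G3, and 7 rose, 7 fell and 11 did not pass in G5, so 32.0% and 56.0% were called, near the shares of all genes. Pcbp4 (1.41 ± 0.34, SE) and Taf15 (1.26 ± 0.30) rose most in G3, and Raly (1.90 ± 0.27) and Pcbp4 (1.79 ± 0.30) in G5. The muscleblind genes Mbnl1 (−1.96 ± 0.27) and Mbnl2 (−1.88 ± 0.37) fell most in G5. Of 15 genes of nonsense-mediated decay and the exon junction complex, which together degrade transcripts with a premature stop codon, 8 rose, 1 fell and 6 did not pass in G3, and 10 rose, 4 fell and 1 did not pass in G5, so 60.0% and 93.3% were called. The rises were led by the junction proteins Magoh (1.96 ± 0.19) and Magohb (1.94 ± 0.27) in G3 and Eif4a3 (1.89 ± 0.30) and Magoh (1.78 ± 0.17) in G5. The kinase Smg1 (−1.70 ± 0.37) and Upf2 (−1.40 ± 0.41) were among the 4 that fell in G5. No gene of these 4 lists was called in G1.

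Gene length and base composition moved with the differences. Across the 31 members, the Pearson correlation of the TM minus DM difference in G5 was −0.53 with gene length and 0.53 with the GC content of the longest transcript, and over all tested genes these were −0.23 and 0.49. For G3 against G1 in DM the correlation with GC content was 0.62 across members and 0.54 over all genes, and for TM against DM in G1 it was 0.10 and −0.08. Genes share libraries and are not independent, so these are descriptions. Hnrnpa0 has the highest GC content of the members, 55.4%, and Hnrnph1 the lowest, 37.1%, while Srsf7 rose with a GC content of 41.6%. With both properties regressed out, a step decided on with the values in view, 23 members rose and none fell in G3 (36.0% of all genes called). In G5, 20 rose and 1 fell (49.1%). The 1 was Srsf12, whose difference in G5 was built into its selection. Of 7 annotated pseudogenes of members, the highest value in any library was 1.16 FPKM, for a pseudogene of Hnrnpa1.

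**Figure D4:**
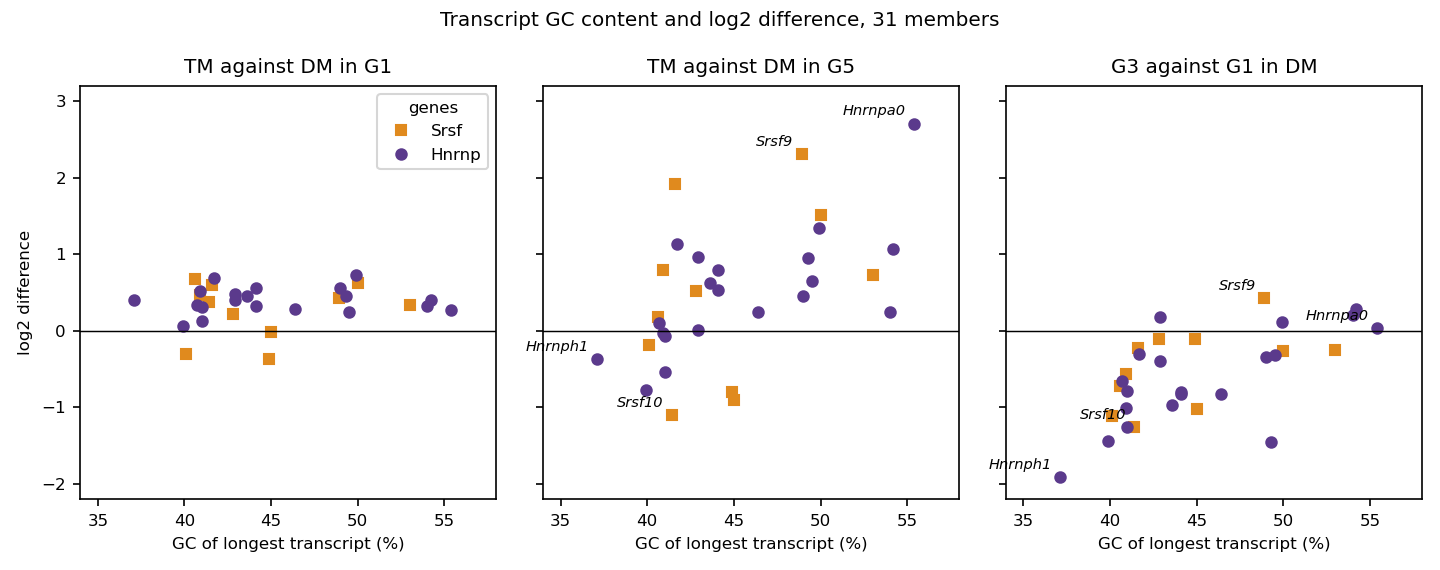
Log2 difference of the 31 genes (squares Srsf, circles Hnrnp) against the GC content of the longest transcript in percent, for TM against DM in G1, TM against DM in G5 and G3 against G1 in DM. The points show little slope in the first panel (Pearson correlation 0.10) and an upward slope in the others (0.53 and 0.62).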

How the data were processed

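PolyA RNA of 15 fibroblast libraries was sequenced, and the authors deposited 1 table of FPKM for 54495 genes with the gene length used for each. Tools listed in the submitters' processing notes, with no role for any, were HISAT2 2.0.5, featureCounts 1.5.0-p3, fastp, DESeq2 1.20.0 and CASAVA 1.8, and the build is not given in the sources used here. Coordinates equalled GENCODE vM21 (GRCm38) for 98.3% of genes, and the listed length equalled the annotated exonic length for 28 of the 31 members. Listed and annotated lengths differed for Srsf7 (2279 and 3550 bases), Hnrnpm (4701 and 7956 bases) and Hnrnpul2 (5726 and 7108 bases). FPKM values times gene length were whole multiples of 1 step per library (tolerance 0.05) for 99.89 to 100% (rounded) of the values above 0, which gave back read numbers. Those were used only with voom.

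The values log2(FPKM + 1) of 13562 genes were modelled in limma 3.58.1 (R 4.3.3) by a mean for each of the 6 groups, with a trended empirical Bayes prior and two-sided tests. Tables, sequences and plots were made in Python 3.11.15 (matplotlib 3.10.9, pandas 2.3.3, numpy 2.4.6, scipy 1.17.1). The script was tested on simulated data. Alternatives were a pseudocount of 0.1, no filter, quantile normalization, an equal sum over tested genes, only the groups compared, a replicate block, voom, and leaving out each library. A correction of differences for transcript GC content and gene length, and the interaction of genotype with G5 against G3, were added after the data were seen. The members and the other gene lists were chosen with earlier results of these data known, and no set test was made.

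Values in every library were given for the 3 called members with the largest rise and the 3 with the largest fall in TM against DM in G1, G3 and G5, in G5 against G1 within each genotype and in each interaction, and for the 3 with the highest mean. Of each other list, at most 2 called genes per direction were named in G3 and in G5, and some that the rule gives are not reported here. Other genes are said to be named after their values were seen. No protein sequence was used.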

Additional observations from a re-analysis of the deposited data

Results flagged for a closer look

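The difference between TM and DM itself differed between generations for 3 of the 31 members, where 2.42% of all genes were called in G3 and 19.8% in G5. Relative to G1, the interaction in G3 was 1.901 log2 units for Hnrnpa0 and 1.354 for Srsf9 (adjusted p = 0.00318 and 0.0398, limma). In G5 it was 2.441 for Hnrnpa0, 1.876 for Srsf9 and 1.323 for Srsf7 (adjusted p = 0.000215, 0.00243 and 0.0339). Srsf9 in G3 was lost without the filter, with the replicate block and with voom. Srsf7 in G5 was lost without the filter, with quantile normalization, at an equal sum and with only the groups compared. All of these contrasts set G3TM or G5TM libraries against G1TM, so they span the split of 6 and 9 libraries and cannot be told apart from it. The interactions in G3 also cannot be told apart from embryo sex as Xist and Ddx3y mark it.

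Srsf10 lay on opposite sides in 2 generations. Its TM minus DM difference was 0.2978 in G3, with every G3TM library above both G3DM libraries, and −1.104 in G5, with every G5TM library below all G5DM libraries. The test of that difference, the interaction of genotype with G5 against G3, gave −1.40 ± 0.48 (SE, adjusted p = 0.230, limma) and did not pass. Srsf10 was alike in TM, at 5.23 ± 1.62 FPKM in G3TM and 5.15 ± 0.498 FPKM in G5TM (SD, n = 3 each). DM had 3.88 and 4.05 FPKM in G3, against 6.04, 15.2 and 19.1 FPKM in G5. The lowest G3TM library had 4.15 FPKM. Without overlap, 27 of 31 members lay higher in TM and 1 lower in G3, and 16 higher and 2 lower in G5. The shares of all genes that did so in G3 and G5 were not counted.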

How the results depend on the processing

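Of 84 calls of single members, 32 held in every alternative, and of 1909 alternative values 1599 kept direction and call, 303 kept direction without the call and 7 changed direction. The 32 include the calls of Srsf12 in G5 and in the mean of generations, and both contain a difference built into its selection. The 7 were Srsf6 in G5 TM against DM (−0.0725 with quantile normalization, −0.0563 at an equal sum), Hnrnpl in G5 against G1 in TM (−0.0839, quantile), and, with the GC and length trend removed, Hnrnpr in G5 against G3 in DM (−0.105), Hnrnpk in G3 and G5 against G1 in TM (0.0680 and 0.0962) and Srsf1 in G5 against G1 in TM (0.0041). The cause was not tested.

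Counts of members called moved by over 1.5 times as follows. TM against DM in G3 gave 9 with quantile normalization and 8 at an equal sum (shares of all genes are given above). The mean of generations gave 15 and 13 (53% and 57.6% of all genes). G5 against G3 in DM gave 0 without the filter (0.595% of all genes), at an equal sum (0.619%), with only the groups compared (0%) and with the replicate block (0.752%). It gave 1 with the GC and length trend removed (2.27%). G3 against G1 in TM gave 17 at an equal sum (49.2% of all genes). G5 against G1 in TM gave 5 without the filter (18.1%), 15 at an equal sum (51.6%) and 5 with the replicate block (43.8%). At an equal sum only 5 members in G3 and 6 in G5 had a positive difference. The members' medians were then −0.76 and −0.63, against −0.392 and −0.395 over all genes. The G3 interaction gave 1 without the filter (0.613% of all genes), with the replicate block (1.17%) and with voom (1.42%). The G5 interaction gave 7 with the GC and length trend removed (10.3%).

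Leaving out 1 library gave 6 to 23 members for TM against DM in G3, 14 to 20 in G5, 19 to 24 for the mean and 0 to 0 in G1. Within DM it gave 0 to 13 for G3 against G1, 0 to 1 for G5 against G1 and 0 to 15 for G5 against G3. Within TM the ranges were 3 to 12, 2 to 13 and 0 to 0. The interactions gave 1 to 3 (G3), 2 to 11 (G5) and 0 to 10 (G5 against G3).

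Replicate numbers were not used to pair the samples in the main fit. Correlations of same-numbered deviations from the group mean were 0.0424 in G1, −0.341 and −0.292 in G3, and 0.304, 0.319 and −0.0184 in G5. Deviations in a group of 2 libraries mirror each other, and differently numbered libraries were not correlated. These values therefore cannot show whether the numbers pair the samples. With 2 or 3 libraries a group, small changes were not detectable.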
